A study of Mus musculus with 6 samples.

Results

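The GABA-A receptor subunits described here are 7 genes, chosen by name: the alpha subunits Gabra2, Gabra3, Gabra4 and Gabra5, the beta subunits Gabrb1 and Gabrb2, and the delta subunit Gabrd. All 7 were found, each as 1 gene record, among 21540 records of the authors' deposited table, and all 7 were tested there. The samples were RNA sequencing libraries of nucleus accumbens from C57BL/6 mice. The cocaine group (3 libraries) was injected intraperitoneally with cocaine (20 mg/kg) once a day for 7 days, the control group (3 libraries) is labelled as saline, and the labels put both groups at 4 h of withdrawal. The age and sex of the animals, and whether a library came from 1 mouse or from several, are not stated in the labels. Libraries of a group may share a pool of RNA, and the p-values would then reflect technical spread only.

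GABA-A receptors are pentameric chloride channels opened by GABA, and they carry most fast inhibition in the brain. Most contain alpha and beta subunits together with a gamma or a delta subunit: receptors with a gamma subunit often gather at synapses, while those that pair delta with alpha4, and many that contain alpha5, sit outside synapses and carry tonic inhibition. Medium spiny neurons, the principal cells of the accumbens, both release GABA and are inhibited by it. RNA from dissected tissue pools all cell types, so fewer cells of a type and less RNA per cell cannot be told apart.

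One of the 7 subunits, Gabrb1, was higher in the cocaine group in the authors' deposited table, and the other 6 did not pass. Gabrb1 (ENSMUSG00000029212), the beta1 subunit, went from 11.5 FPKM after saline to 13.3 FPKM after cocaine, a rise of 15.4% (log2 fold change 0.21, q = 0.0255). FPKM is the number of sequenced fragments adjusted for transcript length and for the library total, so levels of different genes can be roughly set side by side. The authors' settings and transcript models are not given, so the order and ratios of levels between genes are approximate. The table gives 1 value per group and none per library. Spread within a group, and overlap between groups, can therefore not be shown for any gene named here.

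Upstream sequence is shown for the beta subunit that passed the threshold, Gabrb1, for the subunit of the same gene cluster with the next smallest p-value, Gabra2, and for the beta subunit with little difference, Gabrb2. Each is the 250 bases before a RefSeq transcription start in build GRCm38.p6, printed 5′ to 3′ on the gene's own strand, with capitals at matches to the motifs named after the sequences.
Gabrb1, chr5:71699682-71699931, plus strand: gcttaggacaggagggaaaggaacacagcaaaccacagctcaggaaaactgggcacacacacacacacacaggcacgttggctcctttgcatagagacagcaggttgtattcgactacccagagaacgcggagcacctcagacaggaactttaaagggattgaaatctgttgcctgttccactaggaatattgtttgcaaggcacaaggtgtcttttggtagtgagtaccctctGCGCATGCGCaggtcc
Gabra2, chr5:71095850-71096099, minus strand: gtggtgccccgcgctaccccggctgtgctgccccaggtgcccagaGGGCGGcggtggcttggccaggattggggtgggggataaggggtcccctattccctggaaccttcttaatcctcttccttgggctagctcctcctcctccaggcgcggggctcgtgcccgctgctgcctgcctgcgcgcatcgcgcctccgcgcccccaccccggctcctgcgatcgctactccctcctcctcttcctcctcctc
Gabrb2, chr11:42420190-42420439, plus strand: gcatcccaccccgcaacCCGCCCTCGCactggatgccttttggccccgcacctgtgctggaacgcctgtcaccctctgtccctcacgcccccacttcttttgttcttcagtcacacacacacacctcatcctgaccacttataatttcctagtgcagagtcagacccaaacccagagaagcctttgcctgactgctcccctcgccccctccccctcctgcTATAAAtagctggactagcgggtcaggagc
Both strands were searched for TGACGTCA, the cyclic AMP response element. The AP-1 motif was searched as TGANTCA and the EGR motif as GCGNGGGCG. The GC box was searched as GGGCGG, and the box found upstream of many starts as TATAAA. The core of the NRF1 motif was searched as GCGCANGCG. NRF1 was added after this Gabrb1 sequence had been read.

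The Gabrb1 window printed held the NRF1 letters on both strands, and none of the other motifs. The first bases of these overlapping matches lie 16 and 15 bases before the RefSeq start. The NRF1 letters were present in 5.16% of all 32851 windows of that length in the RefSeq table. A further RefSeq start of Gabrb1 has a window that overlaps an annotated UTR, and that window held none of the motifs. Gabra2 held a GC box 205 bases before its start, a motif present in 32.7% of windows. The Gabrb2 window printed held the TATAAA letters 30 bases before the start (in 12.4% of windows) and an EGR match at 232 bases (in 4.70%), which overlaps a GC box match at 233 bases. The windows of the other 2 RefSeq starts of Gabrb2 held none of the motifs. Matches are letters in a window and not measured sites. Windows were available for 6 of the 7 subunits. None of their 10 windows held the cyclic AMP response element or AP-1 letters, which occur in 1.55% and 6.75% of all windows.

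The 7 subunits covered a wide range of levels. Gabrd was the most abundant of them in the authors' deposited table, at 66.0 FPKM after saline and 64.5 FPKM after cocaine. It was followed by Gabra4 (32.9 and 34.3 FPKM), Gabrb2 (27.0 and 27.2 FPKM) and Gabra2 (16.8 and 18.5 FPKM). At the lower end stood Gabra3 (14.5 and 14.4 FPKM), Gabra5 (13.3 and 13.7 FPKM) and Gabrb1 (11.5 and 13.3 FPKM). The order of the 7 was the same in both groups. With no spread per group, it cannot be said which neighbours in that order differ beyond it; in the cocaine group the 3 lowest lay between 13.3 and 14.4 FPKM. Even the lowest, Gabrb1, ranked above 59.1% of all tested records by mean level, and Gabrd ranked above 91.6%.

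**Figure D1:**
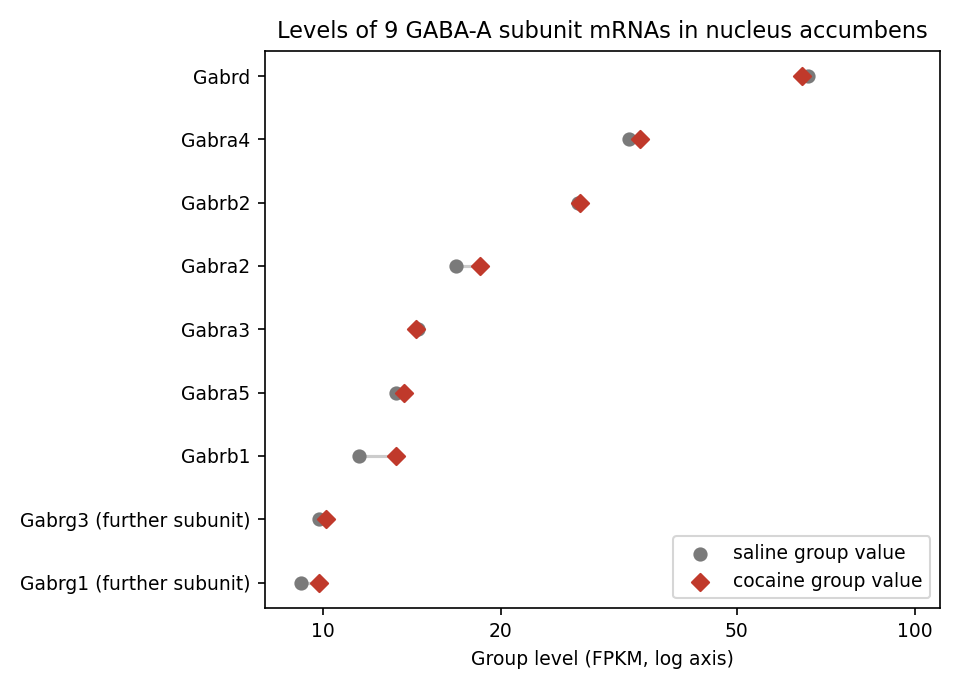
Group levels in FPKM on a log axis for the 7 subunits and for 2 further GABA-A subunits of at least 1 FPKM; grey circles are the saline group and red diamonds the cocaine group, 1 authors' value per group with no error bar. Gabrb1 has the widest gap between its symbols, from 11.5 to 13.3 FPKM, while those of Gabrb2 and Gabra3 nearly coincide.

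Among the beta subunits, which form the GABA binding site together with alpha subunits, Gabrb1 rose and Gabrb2 hardly differed in the authors' deposited table. The p-value of Gabrb1 was 0.000216, rank 158 among 14959 tested records. Of tested records of at least 1 FPKM, 3.57% had a higher log2 fold change than Gabrb1, so changes of this size were not rare. Gabrb2, a beta subunit widespread in the brain, differed by 0.01 on the log2 scale (p = 0.865 in the authors' deposited table). As a ratio of the authors' group values, Gabrb2 stood at 2.35 times Gabrb1 after saline and 2.05 times after cocaine. The difference between the changes of these genes was not tested, since that needs values per library.

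The alpha subunits shape the affinity for GABA, the place of the receptor in the membrane and, with gamma subunits, benzodiazepine binding, and none of the 4 passed the threshold. Gabra2, the synaptic alpha subunit abundant in striatum, had the next largest difference after Gabrb1 in the authors' deposited table (log2 fold change 0.14, p = 0.0132, q = 0.559). Gabra4, an alpha subunit of extrasynaptic receptors in forebrain, had a log2 fold change of 0.06 (p = 0.0501 in the authors' deposited table). Gabra5, abundant in hippocampus and in receptors outside synapses, had one of 0.04 (p = 0.433), and Gabra3, a synaptic subunit found in many monoaminergic and reticular neurons, one of -0.01 (p = 0.916), both from the authors' deposited table. These 4 values descend from a 9.98% difference for Gabra2 to one of -0.84% for Gabra3.

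Gabrd encodes the delta subunit, which takes the place of gamma in extrasynaptic receptors that respond to low GABA and to neurosteroids. Its difference had the opposite sign to that of Gabrb1 in the authors' deposited table, at -0.03 on the log2 scale (p = 0.519), and it did not pass. Its usual partner Gabra4 differed by 4.13%, so the ratio of Gabrd to Gabra4 FPKM was 2.01 after saline and 1.88 after cocaine. The ratio is of group values and has no error.

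By count, 1 of 7 subunits was called higher and 0 lower at the deposited q under 0.05, where 0.521% of all tested records were called higher, 0.709% lower and 1.23% in either direction. At an unadjusted deposited p under 0.05, 2 of the 7 were higher, Gabrb1 and Gabra2, and 0 lower, against 2.02% and 3.74% of all tested records (5.76% in either direction). The whole count at the deposited q is Gabrb1. Of the 7 deposited log2 fold changes 5 lay above 0, where 40.8% of tested records of at least 1 FPKM did. The median of the 7 was 0.04, or 0.03 without Gabrb1, and that of all tested records of at least 1 FPKM was -0.02. These counts describe a short list chosen with earlier results known, and no test was made on it.

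**Figure D2:**
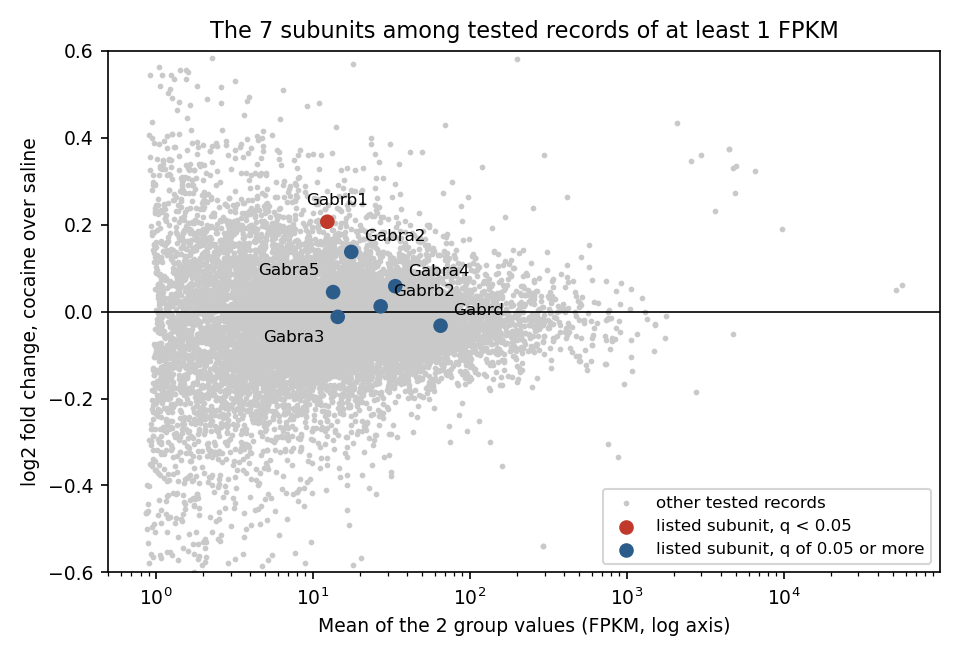
Log2 fold change, cocaine over saline, against the mean of the group values in FPKM on a log axis, for tested records of at least 1 FPKM (grey) and the 7 subunits (red at q below 0.05, blue otherwise); 110 records beyond 0.6 in either direction are not drawn. Gabrb1, at 0.21, lies toward the upper side of the records of its level, and the other 6 lie within the cloud.

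Further GABA-A subunits were taken from a list of 9, of which 5 were tested and 2 were tested and reached 1 FPKM. By the authors' deposited test 0 of them passed, and 0 at an unadjusted p under 0.05. Gabrg1, a gamma subunit also found in glia, stood at 9.21 and 9.86 FPKM (the authors' deposited test gave p = 0.397). Gabrg3, another gamma subunit, stood at 9.88 and 10.1 FPKM (the authors' deposited test gave p = 0.506). Gabre, Gabrq and Gabrr2 were tested but below 1 FPKM in both groups, Gabrr1 was not tested, and Gabra6, Gabrp and Gabrr3 are listed at 0 in both groups.

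Over 9 tested subunits of at least 1 FPKM, the 7 and these 2 together, 7 had a deposited log2 fold change above 0. The exceptions were Gabrd and Gabra3, of which Gabra3 lay at 0.009 once the median of all genes was set to 0. GABA-A subunit genes lie in clusters, and the differences can be set out by neighbourhood, using gene order in the RefSeq table of GRCm38.p6. In the cluster of Gabrg1, Gabra2, Gabra4 and Gabrb1 the log2 fold changes were 0.10, 0.14, 0.06 and 0.21 in that order. For the neighbours Gabrg3 and Gabra5 they were 0.04 and 0.04, and for Gabrb2 0.01. Gabrd, which stands apart from other subunit genes, and Gabra3, whose neighbour Gabrq was below 1 FPKM, had the values below 0. With the GC and length trend described below removed, the values from Gabrg1 to Gabrb1 were 0.06, 0.10, 0.05 and 0.13 in the same order. For Gabrg3, Gabra5, Gabrb2, Gabrd and Gabra3 they were -0.02, 0.06, 0.02, 0.03 and -0.002. The clusters were not compared by a test.

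The gene models of a neighbouring pair overlap. In GENCODE release 21, Gabra4 and Gabrb1 lie head to head on opposite strands with 196 shared bases, of which 46 are exonic in both, out of 6083 exon bases of Gabra4 and 13838 of Gabrb1. The labels do not say whether counting used strand, and if it did not, reads from these bases could have been counted for either gene. That annotation is later than the build the authors used.

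Transcript length and base composition differed among these genes. The longest transcript of Gabrb1 has 13737 bases in GENCODE release 21, a length reached by 0.617% of genes of at least 1 FPKM, against a median of 3412 bases. The transcript of Gabrd is the richest in G and C of the 7, at 54.7%, and it had the lowest deposited log2 fold change. The order was not strict: Gabra5, the shortest at 2671 bases and with the next highest GC content (47.1%), had a higher log2 fold change than Gabrb2 and Gabra3. Across 12639 genes, which are not independent replicates, long and GC-poor transcripts tended to be higher after cocaine (Spearman's rho 0.18 with length and -0.30 with GC content). The GC and length cell that holds Gabrb1 has 126 genes with a median log2 fold change of 0.07. Their median length was 9857.5 bases, shorter than Gabrb1. Less the median of its cell, Gabrb1 stood at 0.13, which is below its deposited 0.21 by more than 1.5 times. Gabra2 stood at 0.10, and Gabrd turned from -0.03 to 0.03. With that trend removed, 6 of the 7 lay above 0, where 49.8% of genes did. No p-value belongs to these values, and the part of length in the Gabrb1 call was not tested.

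**Figure D3:**
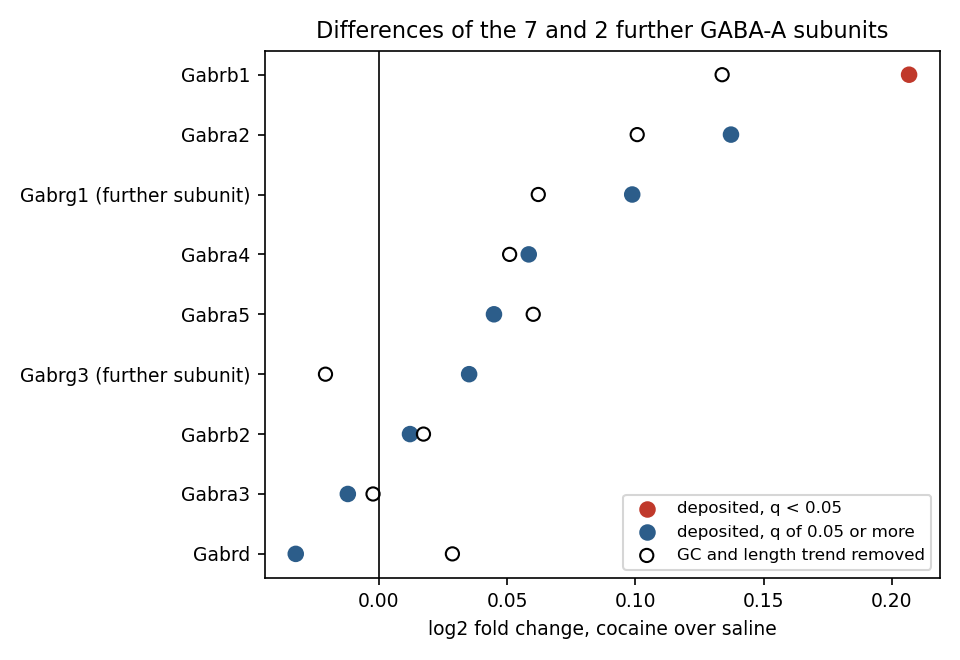
Log2 fold change, cocaine over saline, of the 7 subunits and the 2 further tested subunits of at least 1 FPKM: filled circles are the deposited values (red at q below 0.05) and open circles the same with the GC and length trend removed. Gabrb1 moves from 0.21 to 0.13 and stays the highest, while Gabrd crosses 0 from -0.03 to 0.03 and Gabrg3 from 0.04 to -0.02.

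Genes that place, move and tune the receptor were taken from 5 further lists. Among 10 tested scaffold and anchoring genes 1 fell and 0 rose in the authors' deposited table, with a median log2 fold change of -0.003. The fall was Lhfpl4, an auxiliary protein that holds receptors at inhibitory synapses (49.4 to 45.8 FPKM, log2 fold change -0.11, q = 0.00272). Akap5, a kinase anchor, stood at 100.7 and 102.9 FPKM, and Nlgn2, an adhesion protein of inhibitory synapses, at 80.4 and 81.3 FPKM, in the same table. Among 15 trafficking and assembly genes 1 rose and 1 fell in the authors' deposited table, with a median of -0.002. The kinesin Kif5a, a motor for vesicles that carry the receptor, rose from 264.7 to 273.5 FPKM (log2 fold change 0.05, q = 8.12e-05). Its adaptor Hap1, which binds beta subunits, fell from 129.5 to 117.2 FPKM (log2 fold change -0.14, q = 0.00940). Nsf, a membrane fusion ATPase and the most abundant of that list, stood at 331.7 and 349.3 FPKM (the authors' deposited test gave p = 0.596).

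Of 13 tested kinase and phosphatase genes whose products act on subunits, 2 rose and 0 fell in the authors' deposited table, with a median of 0.02. Prkcb, a protein kinase C, rose from 197.0 to 216.3 FPKM (log2 fold change 0.13, q = 1.86e-05), and Camk2a, a calcium and calmodulin dependent kinase, from 554.2 to 594.9 FPKM (log2 fold change 0.10, q = 0.00915). Ppp3ca, a calcineurin subunit, stood at 510.5 and 516.1 FPKM (the authors' deposited test gave p = 0.391). The 9 tested genes that set the chloride gradient gave 0 calls by the authors' deposited test, and 0 at an unadjusted p under 0.05, with a median of -0.0007. The most abundant of these were Slc12a5, the chloride extruder KCC2 (150.4 and 147.4 FPKM), and the more abundant record of Wnk1, a kinase that regulates such transporters (146.3 and 148.4 FPKM). Slc12a2 (13.5 and 13.2 FPKM) and Wnk2 (37.7 and 37.3 FPKM) of the same list had no valid test, so the absence of calls does not cover them. The 8 genes of neurosteroid synthesis and of benzodiazepine-site ligands likewise gave 0 calls by the authors' deposited test and 0 at an unadjusted p under 0.05, with a median of -0.07 over the 6 of at least 1 FPKM. Dbi, the precursor of peptides that bind the benzodiazepine site, stood at 171.0 and 159.9 FPKM. Srd5a3, of the steroid reductase family by name, stood at 9.65 and 8.93 FPKM. Read against the 1.23% of all tested records that passed, the 5 lists, of 10, 15, 13, 9 and 8 tested genes, gave 5 calls. Over records of at least 1 FPKM, with the p-values adjusted over these alone, the share was 1.55%. Neither share is matched to the levels of the listed genes, and no test of the lists was made. With the GC and length trend removed, the log2 fold change of Hap1 was -0.07 and that of Lhfpl4 -0.06, each closer to 0 than deposited by more than 1.5 times. Those of Kif5a, Prkcb and Camk2a were 0.07, 0.17 and 0.12, all above the deposited 0.05, 0.13 and 0.10.

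Markers of the tissue and of other cells were read from the same table. The 7 medium spiny neuron markers found, of 8 listed symbols, were all abundant, with a summed level of 1668 FPKM after saline and 1632 FPKM after cocaine. By the authors' deposited test they gave 0 calls, and 1 was lower at an unadjusted p under 0.05. Astrocytes also express GABA-A subunits, and their 4 markers summed to 991 and 984 FPKM with 2 above and 2 below 0, 0 calls by the authors' deposited test, and 1 in each direction at an unadjusted p under 0.05. The 4 cortical glutamatergic neuron markers summed to 57.1 and 50.7 FPKM, with all 3 of at least 1 FPKM below 0 and Slc17a7 called lower (log2 fold change -0.15, and -0.08 with the trend removed). The 4 thalamic or hippocampal neuron markers summed to 241 and 260 FPKM, with 2 above and 2 below 0. Nearly all of that sum was Wfs1, which was called higher (235.9 to 254.8 FPKM, q = 0.0162 in the authors' deposited table). Slc17a6 (0.854 and 1.04 FPKM), Prox1 (2.01 and 1.95 FPKM) and Tcf7l2 (2.58 and 2.52 FPKM) were low and not called. The sum therefore follows Wfs1 and does not measure the amount of thalamic or hippocampal tissue. The 4 choroid plexus markers summed to 8.78 and 18.5 FPKM, where Ttr, the 1 called, went from 0.668 to 10.8 FPKM and the other 2 of at least 1 FPKM, Clic6 and Kl, lay below 0. Folr1, below 1 FPKM in both groups, stood higher after cocaine (0.234 and 0.618 FPKM) and was not called. The 3 endothelial and mural markers summed to 17.4 and 13.6 FPKM, Cldn5 being the 1 called. The part of these lists in the Gabrb1 difference was not tested.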

How the data were processed

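RNA sequencing libraries of nucleus accumbens, 3 per group, were compared by the authors. TopHat2 2.0.6, Cufflinks 2.0.2 and build NCBIM37 are named in the submitters' processing notes; settings and annotation are not given there. The deposited table, laid out like Cuffdiff output, holds 1 FPKM value per group (a unit the file does not name), the log2 fold change, and the p-value and q-value of the authors' test, per the file headers. A log2 fold change could be recomputed within 1.28e-05 for tested records. The 14959 records marked as tested were used. The deposited q of Gabrb1 (0.0255) exceeds a Benjamini-Hochberg value over those records (0.0205), so the authors' adjustment differs from it; the reason is not given. Read depth is unknown, and no count model, interval or floor was used.

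Groups follow the treatment label, since the protocol text is the same for both groups. A gene was called at deposited q < 0.05. Where symbols had several records, the one of highest mean FPKM entered a list. The GC and length trend was removed by subtracting the median of each of 10 GC by 10 length cells (longest transcript per gene, GENCODE mouse release 21, 97.3% matched). It was tried on simulated data with planted differences larger than those of the subunits. That trial therefore does not bear on values as small as theirs. Promoter windows are RefSeq's, build GRCm38.p6; windows that overlap an annotated UTR were searched and not printed. Some genes of the lists are not reported here. The subunits, lists and alternatives were chosen with earlier results of these data known. All 7 subunits are named, then further listed subunits of at least 1 FPKM, and from each list up to 4 called genes and the 2 most abundant. Other subunits and markers named, and the untested Slc12a2 and Wnk2, were chosen after their values were seen. With 1 value per group no likeness between genes over samples could be measured. Analyses used Python 3.11.15, pandas 2.3.3 and numpy 2.4.6.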

Additional observations from a re-analysis of the deposited data

How the results depend on the processing

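The deposited table has no values per library, so leaving out a library and the test per library were not run. No paired analysis was possible because the table holds 1 value per group and its columns carry no replicate number. Gabrb1 passed under each adjustment tried, and the other 6 subunits did not. The adjusted p of Gabrb1 was 0.0178 over records of at least 1 FPKM and 0.0205 over all tested records (Benjamini-Hochberg on the deposited p). Both start from the same deposited p and came out below its deposited q of 0.0255. They were therefore no stricter than the call they checked. At an unadjusted p under 0.05 the number of subunits higher was 2, and with Gabrb1 left out, an alternative added after seeing the data, it was 0 at the deposited q and the median log2 fold change was 0.028. The fold change of each of the 7 subunits stayed within 1.5 times under pseudocounts of 1 and 0.1. At saline levels of 11.5 to 66.0 FPKM such pseudocounts could hardly act, so this is not a check of the differences. Setting the median of all genes to 0, or scaling without mitochondrial and the 2 highest records, moved Gabra3, Gabrb2 and Gabrd beyond that, and turned the sign of Gabra3 (0.009 and 0.003). Removing the GC and length trend moved Gabra3, Gabrb1 and Gabrd and turned Gabrd. The number of records called was 184 at the deposited q. With the p-values adjusted again by Benjamini-Hochberg over fewer records it was 201 (records of at least 1 FPKM) and 198 (at least 5 FPKM), so the adjustment and the filter changed together. The unknown depth and the lack of values per library limit all of these statements.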
